A study of Mus musculus with 8 samples.

Results

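The genes described here are 10 of the 31053 in the count matrices: the lecticans Vcan, Bcan, Ncan and Acan, the tenascins Tnr and Tnc, the link proteins Hapln1, Hapln2 and Hapln4, and the receptor phosphatase Ptprz1. They were picked by gene symbol, with earlier results of these data known, and each symbol matched 1 row. Single-cell RNA sequencing had been done on the prefrontal cortex (PFC) and the striatum (NAc in the sample labels, dorsal and ventral striatum in the study) of wild-type (WT) mice and of mice heterozygous for Setd1a, a histone H3K4 methyltransferase linked to schizophrenia, to ask which cell types respond to the loss of 1 allele. All mice were C57BL/6N males, given as 8 to 10 weeks old in the sample labels and as older in the study's methods, and the mutant line was made in hybrid zygotes and then backcrossed. The Setd1a+/- mice carried a germline frameshift deletion made with CRISPR-Cas9 ahead of the part that encodes the catalytic SET domain, and the WT mice were littermates. Each tissue gave 2 WT and 2 Setd1a+/- libraries, 8 in all, and each library pooled the tissue of 2 mice, so single animals could not be separated.

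The lecticans are large proteoglycans that carry chondroitin sulfate chains, and they form the core of the brain's extracellular matrix. They bind hyaluronan, link proteins lock that bond, and tenascins join lecticans to each other. The condensed form of this matrix is the perineuronal net, known best around fast-spiking interneurons that make parvalbumin (Pvalb), and glia, above all oligodendrocyte progenitors and astrocytes, make many of its parts.

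The authors' annotation placed 23687 cells in 8 PFC and 10 striatal types: excitatory neurons (EN, PFC only), D1 and D2 medium spiny neurons and neural stem cells and neuroblasts (D1, D2 and NB, striatum only), and, in both tissues, interneurons (IN), astrocytes (Astro), oligodendrocyte progenitors (OPC), newly formed oligodendrocytes (NFO), oligodendrocytes (Oligo), microglia (Micro) and endothelial cells (Endo). The libraries held 1508 to 4361 annotated cells with 5999666 to 13521114 unique molecular identifiers (UMIs, counts of captured transcripts), and the median cell of a library had 2302.5 to 3042 UMIs. Levels are UMIs of a gene scaled to a total of 1000000 UMIs over all genes in the same cells of a library (CPM), given as mean ± SD of 4 libraries of a tissue, 2 of each genotype. Counting is from transcript ends, so levels are compared between cells and never between genes. Setd1a itself stood at 8.45 and 11.2 CPM in the PFC libraries from WT mice against 5.59 and 9.33 CPM from Setd1a+/- mice, and at 13.4 and 15.2 against 9.16 and 12.5 CPM in the striatum. These counts come from the transcript's end, outside the deleted stretch, and do not check the deletion. Markers of the annotated types were highest where named, except that Gad2 and Slc32a1 were higher in D1 neurons than in striatal interneurons. The Endo type of both tissues also held mural cell markers, and the striatal Astro type ependymal markers. Any 2 libraries shared 1 to 24 cell barcodes.

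In the mouse genome (GRCm38, GENCODE vM21 annotation) each lectican gene lies beside a gene for a link protein, with 0 coding genes between them. Vcan (chr13:89655312-89742509, reverse strand) and Hapln1 (chr13:89539796-89611652, forward strand) are 43.7 kb apart. Bcan (chr3:87987531-88000230) and Hapln2 (chr3:88021750-88027583), both on the reverse strand, are 21.5 kb apart. Ncan (chr8:70093085-70120873, reverse) and Hapln4 (chr8:70083457-70090862, forward) point their ends at each other across 2.22 kb. Acan (chr7:79053483-79115099, forward) ends 2 bases from the end of Hapln3, a link protein gene outside the member list, and reads from the meeting ends of these genes may be hard to assign. Tnr (chr1:159523769-159931729, forward), Tnc (chr4:63959785-64047015, reverse) and Ptprz1 (chr6:22875502-23052916, forward) lie apart from the others.

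The 4 promoters shown are those of the members whose level was highest in OPCs or NFOs of both tissues and whose 250 bases before the start site touch no annotated exon. They come from RefSeq (GRCm38.p6), chr13:89742513-89742762 on the reverse strand, chr7:79052976-79053225 on the forward strand, chr1:159523519-159523768 on the forward strand and chr6:22875252-22875501 on the forward strand, and are written 5′ to 3′ with matches to 5 short motifs in capitals (a match on the other strand appears as its reverse complement).
Vcan: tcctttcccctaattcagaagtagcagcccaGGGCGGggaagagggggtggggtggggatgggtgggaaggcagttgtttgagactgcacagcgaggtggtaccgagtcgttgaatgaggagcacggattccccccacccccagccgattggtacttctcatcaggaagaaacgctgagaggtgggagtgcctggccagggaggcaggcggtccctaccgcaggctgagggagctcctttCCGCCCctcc
Acan: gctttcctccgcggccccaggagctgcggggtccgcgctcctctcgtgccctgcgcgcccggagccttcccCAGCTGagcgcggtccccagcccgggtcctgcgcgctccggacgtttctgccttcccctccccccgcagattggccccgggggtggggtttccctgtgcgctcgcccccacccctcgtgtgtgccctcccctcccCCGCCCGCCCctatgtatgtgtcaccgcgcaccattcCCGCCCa
Tnr: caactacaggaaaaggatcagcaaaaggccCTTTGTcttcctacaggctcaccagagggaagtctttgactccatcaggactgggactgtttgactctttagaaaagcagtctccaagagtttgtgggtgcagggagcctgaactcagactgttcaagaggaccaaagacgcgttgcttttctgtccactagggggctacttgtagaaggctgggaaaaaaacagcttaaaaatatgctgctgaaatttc
Ptprz1: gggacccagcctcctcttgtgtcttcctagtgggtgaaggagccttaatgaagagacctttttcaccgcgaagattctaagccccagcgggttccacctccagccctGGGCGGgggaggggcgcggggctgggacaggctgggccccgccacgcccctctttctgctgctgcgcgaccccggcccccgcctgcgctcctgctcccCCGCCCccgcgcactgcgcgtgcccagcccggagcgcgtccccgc

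The motifs searched, on both strands, were the GC box GGGCGG, the TATA box TATAAA, the E-box CAGCTG, and the SOX-type forms ACAAAG and ACAATG, which 32.7%, 12.4%, 13.0%, 16.5% and 10.7% of the 32851 RefSeq promoter windows of this length hold. Vcan and Ptprz1 each held 2 GC boxes and no other match, and Acan held 3, of which a pair overlap, and 1 E-box. Tnr held no GC box and 1 match to ACAAAG on the other strand. The GC content was 62.4% for Vcan, 74.4% for Acan and 71.6% for Ptprz1 against 46.8% for Tnr and a median of 52.4% over all windows, and the count of CG pairs was 10, 26 and 22 against 2 and a median of 6. So genes highest in the same lineage had windows of unlike composition. A match is a description of letters, and no match says only that these letters are not in this window. Of the 10 members, 9 had a RefSeq window, and Hapln4 had none in the table.

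The members' levels by cell type are descriptions, since the cells were clustered on expression that includes these genes, and no test was made between types. The plot of levels by library shows each member in every type.

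**Figure D1:**
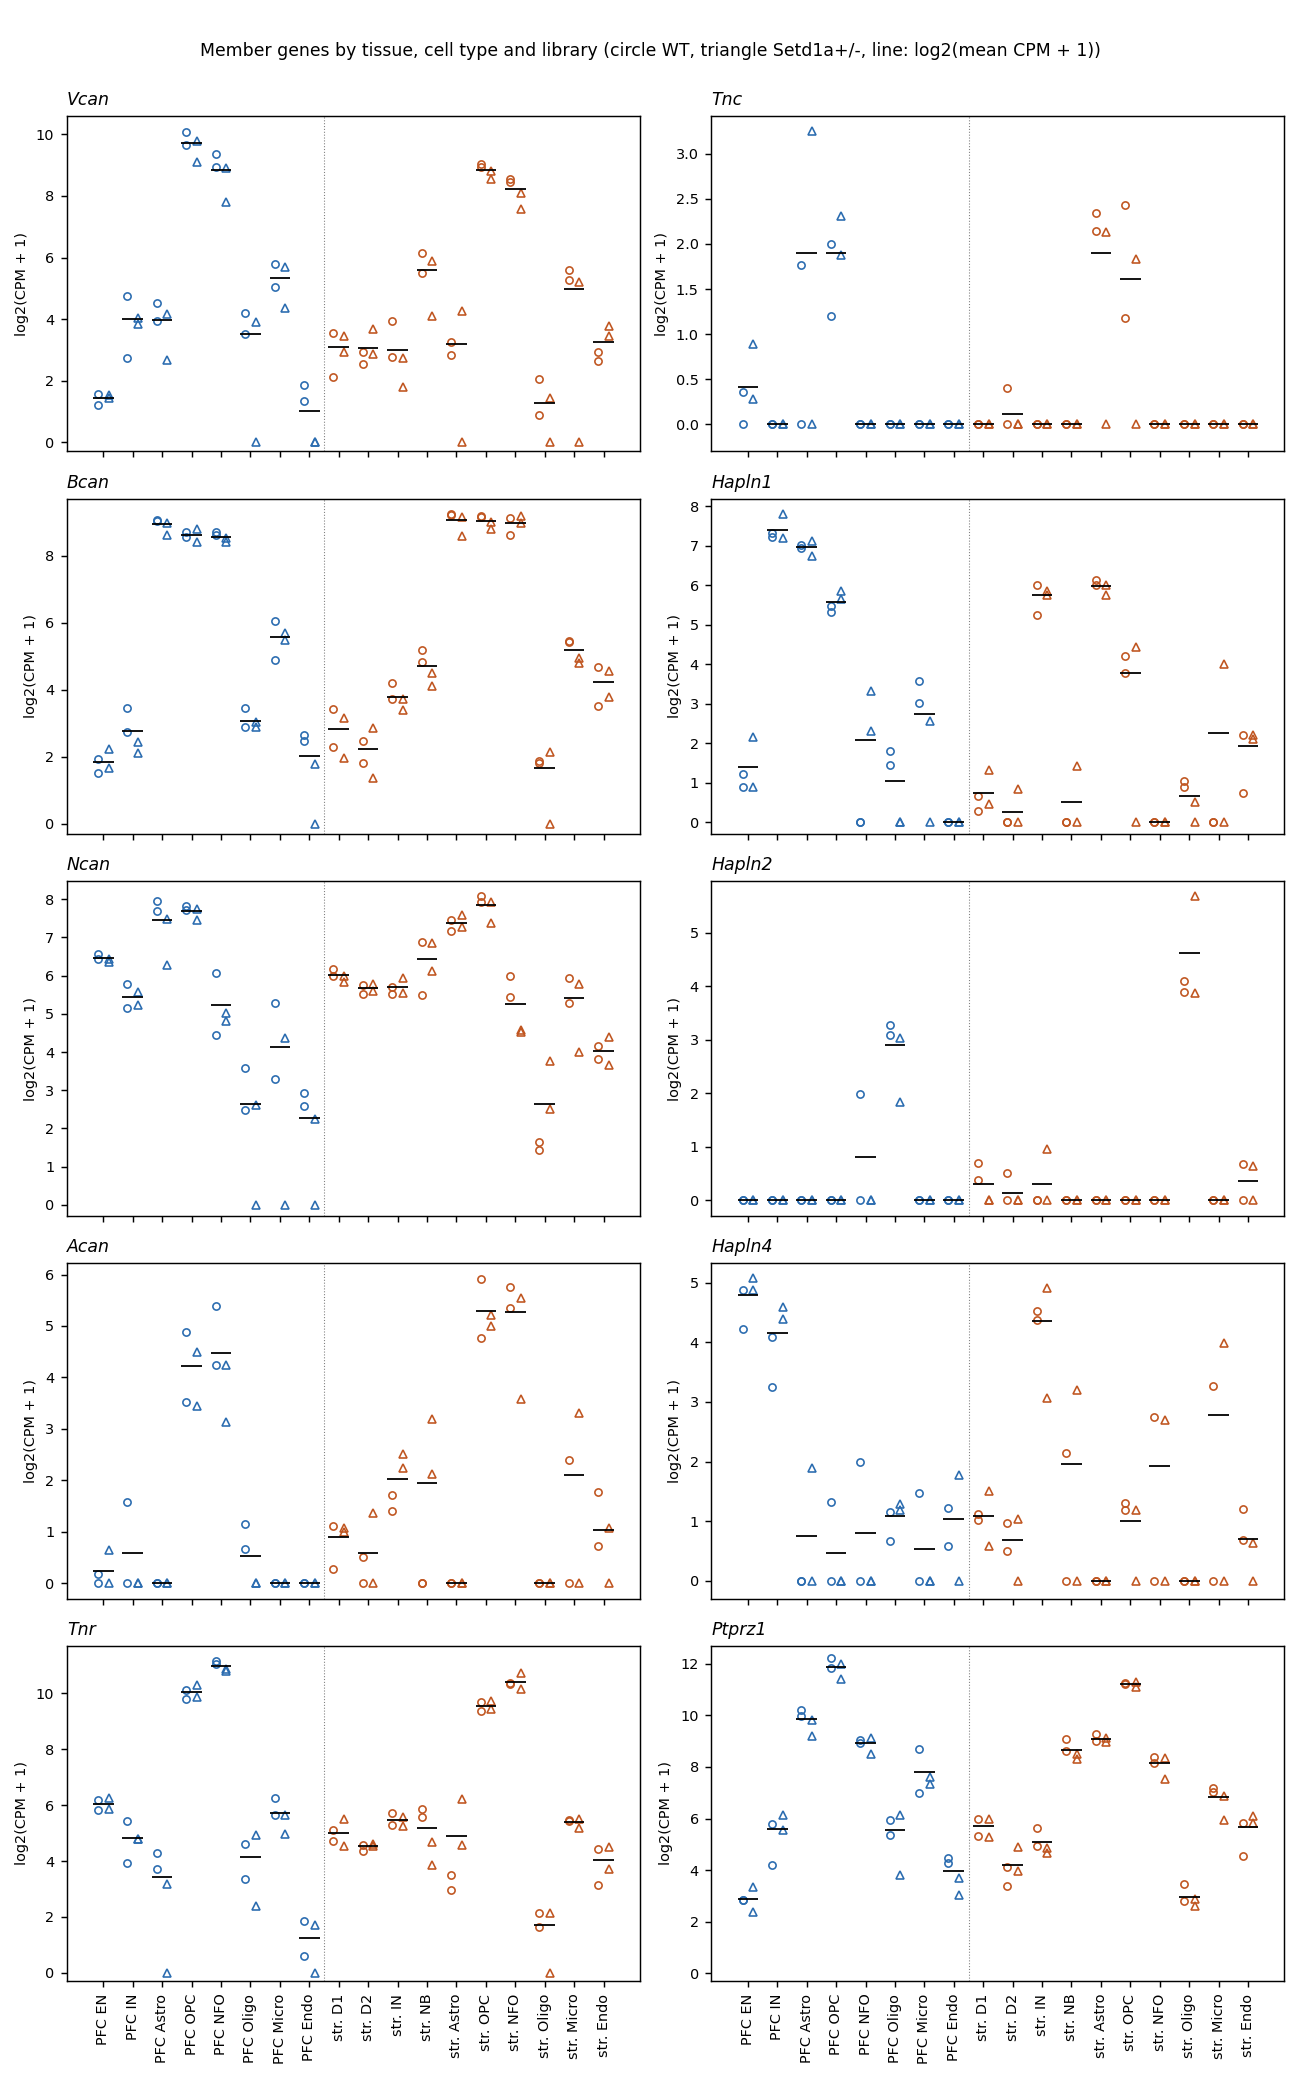
Each panel plots log2(CPM + 1) of 1 member in the 8 PFC types (blue) and the 10 striatal types (orange, "str."), with a circle per WT library, a triangle per Setd1a+/- library and a line at log2 of the mean CPM of 4 libraries plus 1. Vcan, Acan, Tnr and Ptprz1 peak in the progenitor and newly formed oligodendrocyte columns, Hapln1 in interneurons and astrocytes, Hapln2 in oligodendrocytes and Hapln4 in neurons. Axes differ between panels.

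Versican (Vcan), the lectican of progenitor cells and white matter, was an oligodendrocyte progenitor gene in both tissues. In PFC OPCs it was at 1087 and 814 CPM in the WT libraries and 543 and 889 CPM in the Setd1a+/- libraries (833 ± 225), and in PFC NFOs at 458 ± 177 CPM. These ranges overlapped, while the next type, Micro, stood at 39.0 ± 16.3 CPM, below every NFO library. In the striatum the OPC libraries read 490 and 523 CPM (WT) and 446 and 376 CPM (Setd1a+/-), all above the NFO libraries, which ran from 191 to 370 CPM. OPCs were 14.9% of PFC cells and 9.81% of striatal cells and held 77.0% and 69.9% of the tissue's Vcan UMIs. In the PFC, 70.7% of OPCs had a Vcan UMI (51.9 to 84.9% by library) and 54.1% still did when each cell was thinned to 1000 UMIs, against 0.256% and 0.128% of endothelial cells, with median depths of 1651 and 2368 UMIs. In striatal neuroblasts Vcan stood at 47.3 ± 23.3 CPM, with libraries from 16.3 to 70.5 CPM.

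Brevican (Bcan), the most brain-restricted lectican, was shared by 3 glial types at nearly the same level. In the PFC, astrocytes stood at 486 ± 62.9 CPM, OPCs at 392 ± 46.6 and NFOs at 377 ± 33.7, and in the striatum at 537 ± 104, 524 ± 60.0 and 505 ± 80.6 CPM in the same order. The libraries of these 3 types overlapped in both tissues, so their order is not set by these data. Every other type lay lower: PFC Micro came next at 47.0 ± 15.2 CPM, and PFC EN stood at 2.62 ± 0.814 CPM.

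Neurocan (Ncan), a lectican made by both neurons and glia, was found in both. PFC OPCs (206 ± 21.8 CPM) and astrocytes (176 ± 71.9 CPM, with libraries at 205 and 246 in WT and 76.9 and 176 in Setd1a+/-) led, and their ranges overlapped. Excitatory neurons were at 86.4 ± 5.31 CPM, with every library above every interneuron library (42.8 ± 9.09 CPM). Excitatory neurons were 30.8% of PFC cells, with a median of 6546 UMIs a cell, and held 65.9% of the PFC's Ncan UMIs. In the striatum OPCs (230 ± 44.2 CPM) and astrocytes (165 ± 21.6) again led, followed by neuroblasts (86.0 ± 35.8), D1 neurons (63.4 ± 6.29), interneurons (50.7 ± 7.07) and D2 neurons (49.9 ± 4.52), whose libraries overlapped with their neighbours in this order. The 4 D1 libraries (71.7, 62.9, 56.5 and 62.4 CPM) lay above the 4 D2 libraries, which ran from 44.7 to 54.1 CPM.

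Aggrecan (Acan), the lectican that marks most perineuronal nets, was scarce, with 66 UMIs in the PFC and 154 in the striatum, and most of them were not in interneurons. In the PFC, OPCs held 42 of these UMIs and NFOs 18, at 17.6 ± 9.09 and 21.1 ± 14.0 CPM, and interneurons held 1 UMI in 298 cells. In the striatum OPCs held 98 UMIs (59.6, 26.3, 36.0 and 30.8 CPM by library), NFOs 16 (37.4 ± 18.4 CPM) and interneurons 13 (3.08 ± 1.39 CPM). The OPC and NFO ranges overlapped in both tissues and lay above all other types. No Acan UMI was found in 554 PFC astrocytes, which allows a share of up to 0.542% of cells, or in 1562 PFC endothelial cells (up to 0.192%). These limits are for cells with a UMI, not for cells that express the gene. By share of cells, 2.99% of PFC and 6.45% of striatal OPCs had an Acan UMI.

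Tenascin R (Tnr), which cross-links lecticans, was highest in newly formed oligodendrocytes. PFC NFOs read 2113 and 2276 CPM (WT) and 1810 and 1901 CPM (Setd1a+/-) (2025 ± 210), and all 4 lay above every OPC library (1049 ± 168 CPM). In the striatum the NFO libraries read 1335 and 1280 CPM (WT) and 1710 and 1147 CPM (Setd1a+/-), again all above the OPC libraries (759 ± 101 CPM). A Tnr UMI was found in 99.0% of PFC and 95.8% of striatal NFOs, and in 85.8% and 77.0% after thinning. Excitatory neurons had 65.1 ± 10.6 CPM and held 22.2% of the PFC's Tnr UMIs. Tnr was thus abundant in the immature part of the lineage and stood at 16.6 ± 11.7 CPM in PFC and 2.23 ± 1.61 CPM in striatal oligodendrocytes. Tenascin C (Tnc), made by astrocytes and progenitors during development, had 14 UMIs in each tissue, nearly all in astrocytes, OPCs and PFC EN, and was too low for any test.

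Hapln1, the most widely studied link protein of perineuronal nets, was an interneuron and astrocyte gene. PFC interneurons stood at 149 and 157 CPM (WT) and 144 and 222 CPM (Setd1a+/-) (168 ± 36.3), with each library above the astrocytes (123 ± 13.2 CPM), which lay above OPCs (46.9 ± 7.55 CPM). Interneurons were 3.31% of PFC cells and held 47.6% of Hapln1 UMIs, and 27.9% of them had one. After thinning that share was 9.40%, under the 11.4% of the shallower astrocytes, so the order of these types depends on the measure. In the striatum astrocytes (62.2 ± 6.73 CPM) and interneurons (52.3 ± 10.9 CPM) overlapped. No Hapln1 UMI was found in 1562 PFC endothelial cells, which allows a share of cells with a UMI of up to 0.192%.

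Hapln2, the link protein of the nodes of Ranvier on myelinated axons, was almost wholly an oligodendrocyte gene: 27 of 28 PFC UMIs and 85 of 93 striatal UMIs were in oligodendrocytes. The levels were 6.46 ± 2.68 CPM in the PFC and 23.5 ± 17.9 CPM in the striatum. In the striatum the libraries read 13.8 and 16.1 CPM (WT) and 13.7 and 50.4 CPM (Setd1a+/-), so 1 library sets the mean.

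Hapln4, a link protein known at inhibitory synapses, was the neuronal member. PFC excitatory neurons (26.8 ± 6.34 CPM) and interneurons (16.9 ± 6.30 CPM) overlapped, and excitatory neurons held 93.2% of its PFC UMIs. In the striatum interneurons led at 22.0, 19.7, 7.39 and 29.2 CPM (19.6 ± 9.08) and held 72.0% of the UMIs, while D1 neurons stood at 1.14 ± 0.550 CPM. Droplets with 10 to 100 UMIs, which mostly hold free RNA, read 15.0 to 32.0 CPM of Hapln4 in the PFC and 6.96 to 11.5 CPM in the striatum, 1.14 to 1.96 times and 1.86 to 12.5 times the level over all annotated cells of the same library. The excitatory neuron libraries, from 17.8 to 32.6 CPM, were close to this range, and OPCs of the PFC had 1 Hapln4 UMI in 1337 cells. The part of free RNA in these levels was not tested.

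Ptprz1, a receptor phosphatase that is itself a chondroitin sulfate proteoglycan, had its highest level in OPCs. PFC OPCs read 4724 and 3692 CPM (WT) and 2705 and 4031 CPM (Setd1a+/-) (3788 ± 840), all above astrocytes (917 ± 255 CPM), which lay above NFOs (481 ± 86.0 CPM). Striatal OPCs read 2444 and 2356 CPM (WT) and 2526 and 2176 CPM (Setd1a+/-) (2375 ± 150), above astrocytes (548 ± 57.1) and neuroblasts (403 ± 101), which overlapped. A UMI was found in 98.7% of PFC and 97.6% of striatal OPCs, and in 96.3% and 91.0% after thinning. PFC microglia, which should lack the gene, read 224 ± 128 CPM with a UMI in 9.54% of cells, against 64.4 to 107 CPM in the PFC droplets of 10 to 100 UMIs. Microglia of the PFC also carried astrocyte markers at 420 to 768 CPM, and the part of other cells' RNA in their levels was not tested.

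**Figure D2:**
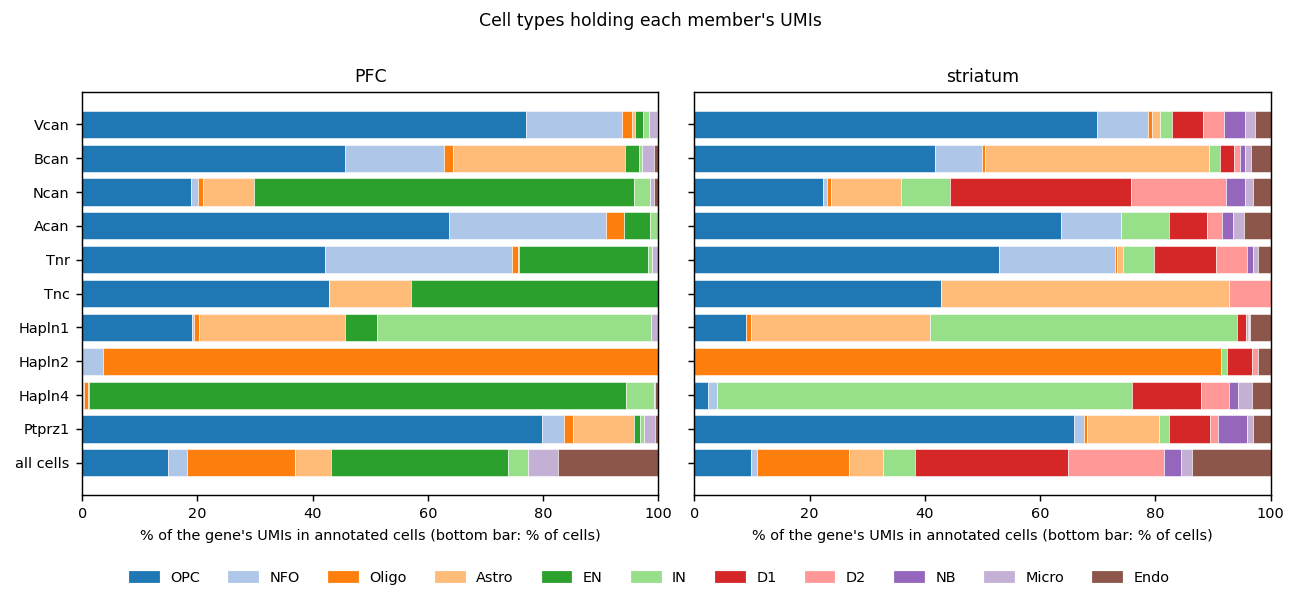
Stacked bars give the percent of each member's UMIs found in each annotated cell type of the PFC (left) and striatum (right), summed over 4 libraries, and the bottom bar gives the percent of cells. OPCs (dark blue) hold 77.0% of PFC Vcan UMIs and 14.9% of cells, excitatory neurons hold 93.2% of PFC Hapln4 and 65.9% of PFC Ncan UMIs, and interneurons hold 47.6% of PFC Hapln1 UMIs.

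Among excitatory neuron subtypes, which the authors named by layer (SL superficial, DL deep) and a marker, Tnr was highest in DL-Etv1 (99.2 ± 16.6 CPM) and lowest in DL-Tshz2 (35.2 ± 10.9 CPM). Ncan was highest in DL-Foxp2 (113 ± 10.3 CPM) and lowest in DL-Tshz2 (49.1 ± 19.7 CPM). Hapln4 lay between 26.6 and 31.8 CPM in 6 subtypes and at 6.82 ± 8.87 CPM in DL-Tshz2. Hapln1 went the other way: DL-Tshz2 held 19 of the 30 excitatory neuron UMIs (14.7 ± 3.68 CPM, libraries from 11.0 to 19.8), and the other subtypes stood at 1.79 CPM or less.

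Most OPCs carried several members at once. The mean number of members with a UMI was 3.33 per PFC OPC and 3.21 per striatal OPC, and 78.7% and 74.4% of them had 3 or more. After thinning, these shares were 56.8% and 48.8%. NFOs were close to OPCs, with means of 3.05 in the PFC and 2.94 in the striatum, and 67.1% and 66.1% had 3 or more (25.8% and 18.8% after thinning). Astrocytes averaged 2.01 and 1.86 members per cell, oligodendrocytes 0.115 and 0.0763, and endothelial cells 0.0691 and 0.185. Across the 18 tissue and type groups, log2(CPM + 1) of Bcan and Ptprz1 had a Pearson r of 0.91, Vcan and Tnr 0.90, Acan and Tnr 0.89, and Vcan and Acan 0.88. The neighbouring pairs were far apart on this measure: r was 0.17 for Vcan and Hapln1, 0.12 for Ncan and Hapln4 and -0.35 for Bcan and Hapln2. These points share libraries and depth, and r is a description only.

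By the same measure over the 18 groups, the pair of genes most like each member, among genes that reach 20 CPM in a group, was Neu4 (r = 0.96) and Chst5 (0.95) for Vcan, Gpr37l1 (0.97) and Car8 (0.96) for Bcan, Sall2 (0.92) and Nim1k (0.92) for Ncan, and A930009A15Rik (0.93) and C1ql1 (0.93) for Acan. Cask (0.93) and Susd5 (0.92) were most like Tnr, and Rlbp1 (0.96) and Fabp7 (0.94) most like Ptprz1. Cxcl14 (0.89) and Lypd6 (0.86) were most like Hapln1, AC161376.2 (0.98) and Gm4524 (0.97) most like Hapln2, and Cntnap4 (0.91) and Mapk8 (0.89) most like Hapln4. Tnc did not reach 20 CPM in any group.

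Setd1a heterozygosity moved no member past the thresholds in these tests of library sums. The study tested single cells with DEsingle, and it names Bcan as changed in RNA-seq of nuclei sorted from Foxp2+ PFC neurons, data not examined here. In DL-Foxp2 neurons 3 members were tested here, 1 of them below 0, with a median log2 fold change of 0.37. Bcan was low in PFC excitatory neurons, as given above, and these tests are no check of the study's Bcan result. UMIs were summed per library and type and tested with edgeR's quasi-likelihood test with Benjamini-Hochberg adjustment over all genes of the type, and a gene was called at an adjusted p under 0.05 and a fold over 1.5 (PFC) or 2 (striatum), as the study set them. Of 88 tests of members, 29 in PFC types, 16 in excitatory neuron subtypes and 43 in striatal types, 0 were called, 3 had an unadjusted p under 0.05, and DESeq2 also called 0. Over all genes tested, 0% were called in PFC types, 0% in the subtypes and 0.00544% in striatal types, so the members did not stand apart. The adjusted p of the 88 tests was 0.917 at the lowest, the median fold change of Setd1a+/- over WT was -0.08 on the log2 scale, 53 of the 88 were below 0, and the median SE was 0.33.

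The glial types differed in the signs of their uncalled values. In PFC astrocytes 4 of 4 tested members and in PFC NFOs 4 of 4 were below 0, with medians of -0.39 and -0.22 beside 0.00 and 0.01 over all genes. In OPCs 5 of 7 were below 0 in each tissue, with medians of -0.16 in the PFC and -0.22 in the striatum beside 0.00 in both over all genes. In striatal astrocytes 4 of 5 were below 0 (median -0.17), in striatal NFOs 2 of 4 (median 0.04), in PFC oligodendrocytes 2 of 3 (median -0.21), in striatal oligodendrocytes 0 of 1 (0.30), in PFC microglia 1 of 1 (-0.54) and in striatal microglia 2 of 2 (median -0.29). Members of a cell type are counted in the same libraries and are not independent. In PFC OPCs the log2 fold change was -0.39 ± 0.31 (SE) for Vcan, -0.31 ± 0.25 for Ptprz1, -0.16 ± 0.27 for Ncan, 0.14 ± 0.27 for Tnr and 0.35 ± 0.33 for Hapln1. Single libraries set the size: Vcan was at -0.06 and Ptprz1 at -0.03 without Setd1a+/- replicate 1, and at -0.82 and -0.66 without Setd1a+/- replicate 2. In striatal OPCs it was -0.26 ± 0.19 for Vcan, -0.01 ± 0.16 for Ptprz1, -0.22 ± 0.22 for Ncan and -0.31 ± 0.41 for Acan. The Vcan libraries of the striatum (490 and 523 CPM in WT against 376 and 446) did not overlap, nor did those of 30.3% of all genes tested there. In striatal D2 neurons, the type with the 4 called genes (0.0397% of its genes), 0 of 4 members were below 0, with a median of 0.40.

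In astrocytes the log2 fold change of Bcan was -0.23 ± 0.30 in the PFC and -0.37 ± 0.32 in the striatum, and that of Hapln1 in the striatum -0.17 ± 0.34. Without Setd1a+/- replicate 1 Bcan was at -0.01 in the PFC and -0.88 in the striatum, and without Setd1a+/- replicate 2 at -0.55 and -0.08. For Tnr in NFOs it was -0.24 ± 0.25 in the PFC and 0.20 ± 0.27 in the striatum. Among neuronal members, Hapln1 in PFC interneurons was at 0.26 ± 0.31, Hapln4 in PFC excitatory neurons at 0.39 ± 0.31 and Hapln4 in striatal interneurons at -0.07 ± 0.46. Hapln2 in striatal oligodendrocytes was at 0.30 ± 0.46. All these adjusted p-values (edgeR) were 0.932 or higher. The genotypes' libraries did not overlap in 27 of the 88 member tests, beside 28.5% of all genes tested, a share near the background. The tests under an unadjusted p of 0.05, picked out after their values were seen, were all striatal: Tnr in astrocytes (1.88 ± 0.70), Tnr in neuroblasts (-1.71 ± 0.63) and Vcan in NFOs (-0.70 ± 0.31). Tnc in any type, Acan in PFC NFOs and Hapln2 in PFC oligodendrocytes had too few UMIs for a test.

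**Figure D3:**
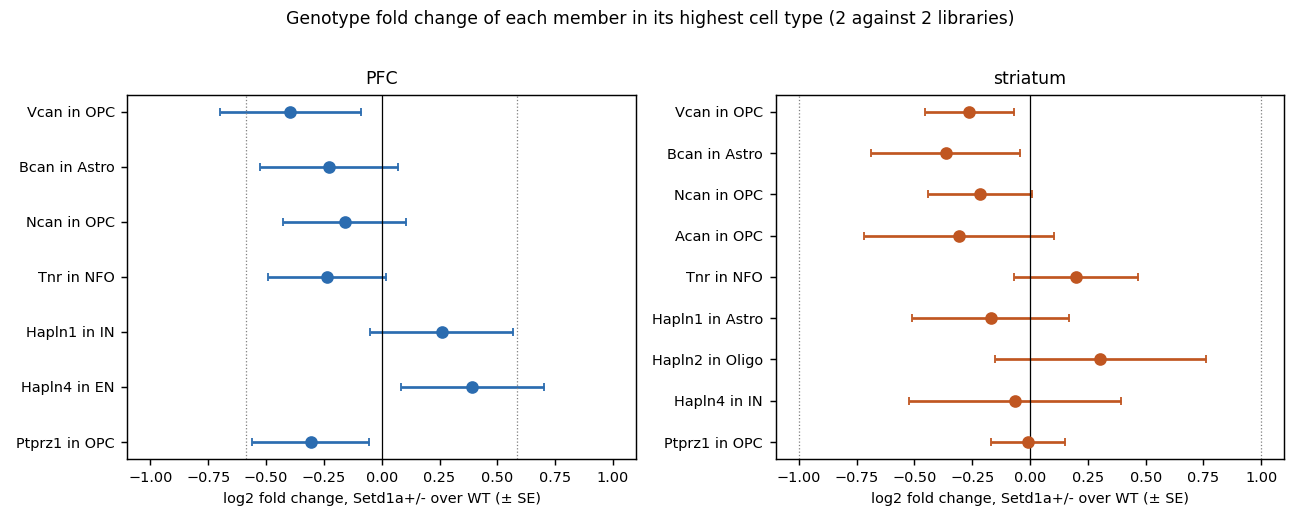
Points give the log2 fold change of Setd1a+/- over WT with its SE (bars) for each tested member in its highest cell type, 2 libraries against 2, in the PFC (left) and striatum (right), and dotted lines mark the fold cutoffs of 1.5 and 2. No point was called, and the largest in size are Hapln4 in PFC excitatory neurons (0.39) and Vcan in PFC OPCs (-0.39).

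The genotype effect did not pass a test of difference between the tissues for any member. In the 7 shared types, 0 of 37 interaction tests were called (edgeR), 2 had an unadjusted p under 0.05, DESeq2 called 0, and 0% of all genes tested were called. The interaction, striatum minus PFC, was 0.12 ± 0.38 for Vcan in OPCs, 0.29 ± 0.32 for Ptprz1 in OPCs, -0.09 ± 0.37 for Ncan in OPCs, 0.11 ± 0.80 for Acan in OPCs, 0.43 ± 0.39 for Tnr in NFOs, -0.11 ± 0.45 for Bcan in astrocytes, -0.06 ± 0.50 for Hapln1 in astrocytes, 1.11 ± 0.94 for Hapln2 in oligodendrocytes and -0.83 ± 0.86 for Hapln4 in interneurons. The SEs are as large as or larger than most of these values.

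Between the tissues, 6 of 30 member tests in the 7 shared types were called, at a fold over 2 and 4 libraries against 4 with genotype in the fit, beside 5.58% of all genes tested. Of the 6, Tnr, Bcan and Ncan in endothelial cells and Ptprz1 in oligodendrocytes passed the filter on low counts only through the tissue where they were high, so this count is no support for the members. Tissue and dissection cannot be told apart, since the tissues were dissected and digested separately. The lowest adjusted p was that of Hapln1 in interneurons, where 8.34% of all genes were called, 4.68% higher and 3.66% lower. PFC libraries read 144 to 222 CPM and striatal libraries 37.1, 62.5, 56.7 and 52.8 CPM, with no overlap, and the log2 fold change of striatum over PFC was -1.64 ± 0.21 (SE, edgeR adjusted p = 7.65e-05). The call held with each library left out in turn. Markers of excitatory neurons summed to 0 to 25.9 CPM in PFC and 259 to 391 CPM in striatal interneurons. Other markers did not overlap either: Vip stood at 1323 to 4478 CPM in the PFC and 0 to 284 CPM in the striatum, the sum of Sst and Npy at 15560 to 23225 and 3131 to 9906 CPM, the 3 general interneuron markers at 2876 to 4350 and 1016 to 1393 CPM, cholinergic markers at 3.98 to 11.1 and 95.2 to 219 CPM, and oligodendrocyte markers at 54.3 to 151 and 153 to 394 CPM. Over the summed libraries Npy alone was at 11412 CPM in PFC and 3105 CPM in striatal interneurons, and Sst at 7406 and 4084 CPM. Npy is not limited to cells with Sst, as given below. Their part in the result was not tested.

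Hapln1 leaned the same way in the glial types that hold it. The member and type pairs that follow, outside the highest type of a member, were picked after their values were seen. In astrocytes (10.1% of all genes called, 7.61% higher and 2.51% lower) the PFC libraries ran from 106 to 137 CPM and the striatal from 53.1 to 69.3 CPM, a log2 fold change of -0.99 ± 0.23 with an edgeR adjusted p of 0.00881, just under the fold cutoff of 2. In OPCs (0.235% of all genes called) it was -1.53 ± 0.33 with an adjusted p of 0.0617, and 46.9 ± 7.55 CPM faced 12.7 ± 9.06 CPM with no overlap, as in 5 of the 7 members tested in OPCs and in 8.2% of all genes tested there. In this fit Hapln1 passed the filter on low counts only through the PFC libraries, where it was high. The count of 5 is thus no support for the members. With the replicate number within each tissue as a block Hapln1 in OPCs was called (-1.54, adjusted p = 0.00329). OPCs also had less Vcan (-0.82 ± 0.18, adjusted p = 0.0642) and Ptprz1 (-0.64 ± 0.15, adjusted p = 0.0979) in striatal libraries, with no overlap for either, and more Acan (1.17 ± 0.37, adjusted p = 0.191), and none of the 3 was called. Without the block Acan passed the filter only through the striatal libraries, where it was high. Acan was called under the block (1.14, adjusted p = 0.0258). Ncan in OPCs (0.21 ± 0.17), Bcan in astrocytes (0.08 ± 0.21), Tnr in NFOs (-0.52 ± 0.19, adjusted p = 0.435, where 0.0604% of all genes were called, 0.0302% in each direction) and Hapln4 in interneurons (0.29 ± 0.42) were not called. The striatal Astro type also held ependymal markers, and the part of other cells' RNA in these tissue differences was not tested.

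In oligodendrocytes (1.96% of all genes called, 1.04% lower), Ptprz1 was lower in the striatum. PFC libraries read 40.0 and 60.3 CPM (WT) and 68.8 and 12.9 CPM (Setd1a+/-), and striatal libraries 5.14 to 10.1 CPM, a log2 fold change of -2.66 ± 0.44 (edgeR adjusted p = 0.00737). It passed the filter on low counts only through the PFC libraries, where it was high, which favours a difference, so the call is no support for the member. Both levels are small beside the 3788 and 2375 CPM of OPCs. The summed level of the 3 OPC markers in this type was 121 to 235 CPM in the PFC and 107 to 220 CPM in the striatum, and that of the 4 NFO markers 147 to 190 and 214 to 311 CPM. Microglial markers were lower in the striatum too, at 85.2 to 250 and 11.0 to 18.6 CPM, as were those of excitatory neurons (9.85 to 48.0 and 0.428 to 6.29 CPM), and D1 and D2 markers were higher. Their part in the result was not tested. Without striatum WT replicate 2 or striatum Setd1a+/- replicate 1 the call was lost (adjusted p = 0.06 and 0.0622). The node link gene Hapln2 read 2.55 to 8.62 CPM in PFC and 13.7 to 50.4 CPM in striatal oligodendrocytes, with no overlap, a log2 fold change of 1.33 ± 0.43 that did not pass (adjusted p = 0.126) but was called under the block (1.37, adjusted p = 0.0253). Hapln2 passed the filter only through the striatal libraries.

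In endothelial cells (5.3% of all genes called, 4.92% higher), 4 of 4 tested members were higher in the striatum at low levels. In the PFC libraries alone Ptprz1 was the single member to pass the filter on low counts, so Tnr, Bcan and Ncan were tested through the striatal libraries where they were high. Tnr read 0.501, 2.65, 2.25 and 0 CPM in the PFC libraries and 20.5, 7.89, 12.1 and 21.9 CPM in the striatal ones (log2 fold change 3.40 ± 0.61, edgeR adjusted p = 0.00558). The changes were 2.61 ± 0.56 for Bcan (adjusted p = 0.0147), 1.79 ± 0.42 for Ncan (adjusted p = 0.0235) and 1.62 ± 0.36 for Ptprz1 (adjusted p = 0.0175), and no range overlapped, beside 13.6% of all genes tested in this type. All striatal levels were well under those of glia: 17.7 ± 7.07 CPM for Bcan against 537 ± 104 CPM in astrocytes. Markers of D1 and D2 neurons, interneurons and neuroblasts moved the same way in this type without overlap, and those of OPCs, astrocytes and oligodendrocytes overlapped between the tissues. Excitatory neuron markers went the other way without overlap, at 4.51 to 30.5 CPM in the PFC and 0 to 0.604 CPM in the striatum. D1 markers were at 0 CPM in the PFC and 76.0 to 406 CPM in the striatum, D2 markers at 25.5 to 27.8 and 151 to 259 CPM, interneuron markers at 3.51 to 7.51 and 71.6 to 161 CPM, neuroblast markers at 24.1 to 37.1 and 61.6 to 80.9 CPM, OPC markers at 2.00 to 14.6 and 9.87 to 43.7 CPM, astrocyte markers at 152 to 268 and 197 to 442 CPM, and oligodendrocyte markers at 60.3 to 103 and 43.7 to 913 CPM. Their part in the result was not tested. The calls rested on single libraries: leaving out PFC WT replicate 1 lost Tnr (adjusted p = 0.0519), Bcan (0.057) and Ncan (0.107), and leaving out striatum WT replicate 1 lost Bcan (0.0815), Ptprz1 (0.0818) and Ncan (0.0875). PFC Setd1a+/- replicate 1 decided Ptprz1 (0.0725) and Ncan (0.0685), and striatum WT replicate 2 decided Ncan (0.0559).

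With the block, 12 member tests were called in place of 6. Beside those given, the added ones were Vcan in endothelial cells (2.57) and Tnr (-2.35) and Vcan (-2.88) in oligodendrocytes, on the log2 scale, each of which passed the filter alone only in the tissue where it was high. Vcan in endothelial cells and Tnr in oligodendrocytes were too low to be tested without the block. Each replicate of a tissue then has its own term, so the error leaves out the spread between replicates.

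**Figure D4:**
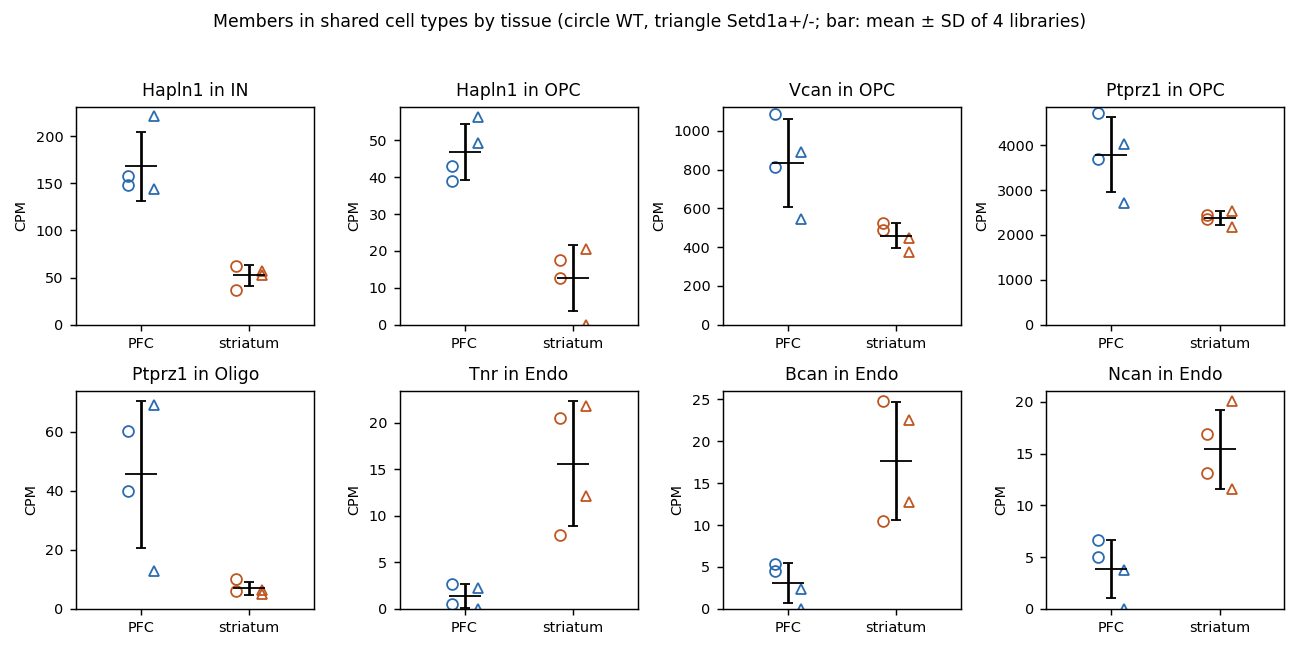
CPM by library in the PFC (blue) and striatum (orange) for 8 pairs of a member and a shared cell type, with circles for WT, triangles for Setd1a+/- and a bar for the mean ± SD of 4 libraries. The striatal points lie below the PFC points for Hapln1, Vcan and Ptprz1 and above them for Tnr, Bcan and Ncan in endothelial cells. Of the pairs drawn, the 3 in OPCs were not called.

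Perineuronal nets are known around Pvalb interneurons, so interneurons with at least 1 Pvalb UMI were compared with those without, within libraries. The split did not use the members. It held 53 cells against 768 in the striatum and 25 against 273 in the PFC, where Setd1a+/- replicate 2 had 0 such cells among 60 and was left out of the fit. The PFC values given here for cells without a Pvalb UMI include this library. Cells with a Pvalb UMI were deeper, at a median of 5850 against 4745.5 UMIs in the striatum and 6428 against 5048 in the PFC. Markers of the other interneuron classes moved with the split. Sst stood at 834 ± 42.2 CPM with and 8165 ± 1847 CPM without a Pvalb UMI in the PFC, and at 7.42 ± 9.61 and 4573 ± 1877 CPM in the striatum. Vip was at 0 CPM with a Pvalb UMI in every library of both tissues, and at 2968 ± 1268 CPM without one in the PFC and 0 to 315 CPM in the striatum.

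In the striatum 4 of 6 tested members were called, beside 8.86% of all genes (3.1% higher and 5.76% lower). Of the 4, Hapln4 and Bcan passed the filter on low counts only through the side with a Pvalb UMI and Ptprz1 only through the side without, where each was high, so this count is no support for the members. Hapln1 passed on both sides. Hapln1 read 274 and 272 CPM (WT) and 262 and 266 CPM (Setd1a+/-) with a Pvalb UMI, and 26.9, 43.9, 43.3 and 29.3 CPM without, a log2 fold change of 2.82 ± 0.26 (edgeR adjusted p = 6.68e-15). Hapln4 stood at 40.3 to 110 CPM with and 5.25 to 23.0 CPM without (2.16 ± 0.47, adjusted p = 0.000425). Bcan stood at 19.0 to 91.5 CPM with and 8.37 to 14.3 CPM without (2.04 ± 0.64, adjusted p = 0.019), and lost the call without either WT library (adjusted p = 0.188 without replicate 1 and 0.0503 without replicate 2). None of these 3 overlapped between the sides, nor did 19.3% of all genes tested. Without cells that have an Sst or Vip UMI these calls held, at 2.45 for Hapln1 (edgeR adjusted p = 1.84e-13), 2.06 for Hapln4 (0.000541) and 1.99 for Bcan (0.022). Ptprz1 was lower with a Pvalb UMI (-2.43 ± 0.81, adjusted p = 0.0303) on 2 UMIs, and lost the call with DESeq2 (adjusted p = 0.214), without cells that have an Sst or Vip UMI (0.116), and without WT replicate 1 (0.0681), WT replicate 2 (0.209) or Setd1a+/- replicate 2 (0.18). Acan was too low for the test, with 4 UMIs in the 53 cells and 9 in the 768 cells, at 12.3 ± 9.37 and 2.26 ± 0.963 CPM. When each cell was thinned to 1000 UMIs before the split, 26 cells had a Pvalb UMI, only 2 libraries had enough of them for the fit, and Hapln1, the 1 member that could be tested, was called (3.14, adjusted p = 0.00538).

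In the PFC Hapln1 went the other way. Libraries read 13.7, 32.0 and 0 CPM with a Pvalb UMI and 157 to 222 CPM without, the 222 CPM being that of Setd1a+/- replicate 2, which was left out of the fit. The log2 fold change was -3.34 ± 0.56 (edgeR adjusted p = 0.000103), with 1 of 2 tested members called beside 5.7% of all genes (2.27% higher and 3.43% lower). The side with a Pvalb UMI held 3 Hapln1 UMIs in 25 cells, and Hapln1 passed the filter only through the side without, where it was high. Without cells that have an Sst or Vip UMI the call held (-3.93, adjusted p = 1.12e-11). With thinned cells it held 0 in 14, and the difference could not be tested. Hapln4 stood at 13.7, 80.1 and 108 CPM with and 6.82 to 23.2 CPM without, the 23.2 CPM again being that of the library left out. The sides of the libraries fitted did not overlap for Hapln4, nor for 21.6% of all genes tested. Its log2 fold change was 2.82 ± 0.92 (adjusted p = 0.0533), having passed the filter through the side with a Pvalb UMI, close to the threshold and past it without PFC WT replicate 1 (3.18, adjusted p = 0.00109). That library held the lowest Hapln4 level with a Pvalb UMI, 13.7 CPM, so leaving it out raises the fold. With either of the other fitted libraries left out, Hapln4 gave no value. Acan was too low for the test in the PFC, with 1 UMI in the 25 cells with a Pvalb UMI and 0 in the 273 without. The difference of the split between the tissues was tested in 1 fit over both, a test added after the values were seen: it was 6.21 ± 0.56 for Hapln1 (edgeR adjusted p = 4.89e-15) and -0.64 ± 0.90 for Hapln4 (adjusted p = 0.866), beside 3.46% of all genes called.

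**Figure D5:**
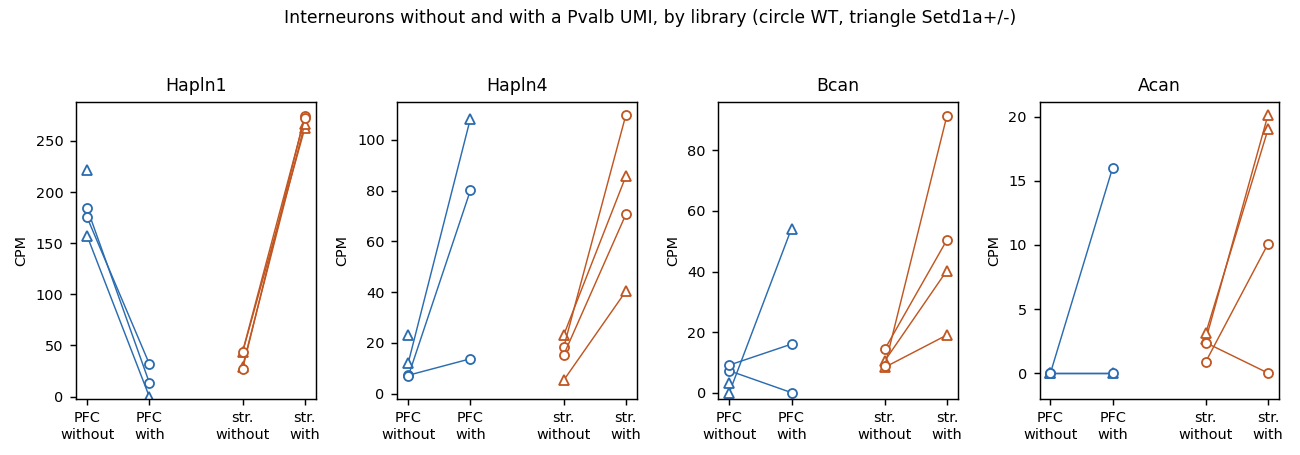
CPM of 4 members in interneurons without and with a Pvalb UMI, in the PFC (blue) and striatum (orange), with a circle per WT library, a triangle per Setd1a+/- library and lines that join the sides of a library. In the PFC Hapln1 lies at 157 to 222 CPM without and at most 32.0 CPM with a Pvalb UMI, the 222 CPM being that of the fourth library. In the striatum it climbs from at most 43.9 CPM to at least 262 CPM. The fourth PFC library has no point with a Pvalb UMI.

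The interneurons that hold Hapln1 in the PFC were examined after the values above were seen, with no test. Of its 263 UMIs in PFC interneurons, 237 (90.1%) were in the 113 cells with no UMI of Pvalb, Sst or Vip, 16 in cells with Vip alone, 7 with Sst alone and 3 with Pvalb alone. Of those 113 cells, 98 had an Npy UMI and held 235 Hapln1 UMIs, at 419 CPM (364 to 506 CPM by library), with a Hapln1 UMI in 69.4% of them, and 86 had a UMI of Lamp5, a marker of neurogliaform interneurons, at 433 CPM. The cells with Npy were deeper than the 15 without (median 5773.5 against 3701 UMIs). In the striatum 76 of 227 Hapln1 UMIs (33.5%) were in the 50 cells with Pvalb as their single marker among Pvalb, Sst, Vip and Chat, and 135 (59.5%) in the 579 cells with none of them.

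The rest of the pathway was followed in 58 genes for chondroitin sulfate chain enzymes, other chondroitin sulfate proteoglycans, hyaluronan enzymes and its receptor, matrix proteases and their inhibitors, and receptors and ligands. By genotype edgeR called 0 of 129 tests in PFC types, 0 of 109 in the subtypes and 0 of 196 in striatal types, with 0, 1 and 5 at an unadjusted p under 0.05 and 0 called by DESeq2, and median log2 fold changes of 0.03, -0.03 and 0.04. Of 135 interaction tests 0 were called (edgeR and DESeq2), with 0 at an unadjusted p under 0.05. The study names the pathway gene Nptx2 as changed in its RNA-seq of sorted Foxp2+ neurons, which was not examined here.

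Between tissues 12 of 120 pathway tests were called higher in the striatum and 2 lower, with a median log2 fold change of 0.03, beside 5.58% of all genes called in either direction. By type, 10.1% of all genes were called in astrocytes (7.61% higher), 5.3% in endothelial cells (4.92% higher), 8.34% in interneurons (4.68% higher and 3.66% lower) and 17.9% in microglia (12.5% higher). In interneurons the protease Adamts5, which cuts lecticans, was higher in the striatum (3.03 ± 0.53, 3.74 against 30.6 CPM), as was Ptn, which encodes the Ptprz1 ligand pleiotrophin (2.13 ± 0.22, 161 against 653 CPM). Sema3a, a guidance cue that binds perineuronal nets (-1.79 ± 0.38), and the protease inhibitor Timp3 (-1.61 ± 0.42) were lower. In endothelial cells, where D1, D2, interneuron and neuroblast markers were also higher in the striatum, 6 were higher, led by the chain polymerizing factor Chpf (1.83 ± 0.39), the neuroglycan Cspg5 (1.78 ± 0.31), the inhibitor Timp2 (1.73 ± 0.43) and the proteoglycan receptor Ptprs (1.53 ± 0.25). Excitatory neuron markers of this type were lower in the striatum, as given above. Timp2 (2.09 ± 0.38) and Ptprf (1.44 ± 0.28) were higher in striatal astrocytes, and Ptprs (2.00 ± 0.53) in striatal microglia. In microglia D1 markers were at 0 to 3.55 CPM in the PFC and 696 to 1014 CPM in the striatum, D2 markers at 1.77 to 21.6 and 692 to 1195 CPM, and interneuron markers at 3.55 to 151 and 321 to 538 CPM. Markers of astrocytes (420 to 768 and 44.8 to 183 CPM) and excitatory neurons (10.6 to 58.5 and 0 to 4.20 CPM) were lower there. The part of other cells' RNA in these 2 types was not tested. Of those named, Adamts5 in interneurons, Chpf and Timp2 in endothelial cells, Timp2 and Ptprf in astrocytes and Ptprs in microglia passed the filter only through the striatal libraries and Sema3a only through those of the PFC, the tissue where each was high. The tissue counts of 12 and 2 are thus no support for the pathway genes. In the Pvalb split 1 of the pathway's 22 tests over both tissues was called higher and 2 lower, all in the striatum, and DESeq2 called 2 of the 22. Of all genes tested, 7.75% were called over both tissues and 8.86% in the striatum (3.1% higher and 5.76% lower). Adamts5 was higher (2.28 ± 0.36), and Timp2 (-1.55 ± 0.29) and the dermatan sulfate epimerase gene Dsel (-3.03 ± 1.05) were lower, Dsel having passed the filter only through the side without a Pvalb UMI.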

How the data were processed

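Cells came from the prefrontal cortex and striatum of Setd1a+/- and WT mice, 2 libraries per genotype and tissue. The authors made droplet libraries, aligned them to mm10 and deposited unnormalized UMI counts per gene and droplet (Cell Ranger 3.0.2 and Seurat 3.2.0 are named in the submitters' processing notes), with a table of annotated cells per tissue. Cell types, and the subtypes of excitatory neurons, are the authors' annotation, and only annotated cells entered, each with at least 800 genes. No doublet caller was run. The 159 cells with over 3 times the median UMIs of their type and library were left out in an alternative. The authors' deposited expression tables were not used, since their gene column holds row numbers. Use of strand in counting is not given in the sources used here.

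From the deposited counts, UMIs were summed per library and type. Tests used edgeR 4.0.16 (R 4.3.3), quasi-likelihood, with TMM factors and a filter on low counts (minimum count 10), in types with at least 10 cells in every library, and Benjamini-Hochberg adjustment over all genes of a type. DESeq2 1.42.0 was an alternative, beside other size factors, no filter, a replicate block, cells without high UMI counts, thinned cells and leaving out each library. The Pvalb split needed 5 cells a side and kept library as a block. Some of the tests across genes were also run on counts simulated with the levels and spread fitted to these data. Python 3.11.15, numpy 2.4.6, pandas 2.3.3 and scipy 1.17.1 were used. Intervals and limits from counts of 0 (3 counts of the total) cover counting error only.

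Per the study's methods every replicate used a WT and a mutant sample, and the replicate numbers were taken to pair libraries. Whether paired libraries were prepared together is not stated there. The median correlation of same-numbered libraries' deviations from their group means was 0.415 in the PFC and 0.176 in the striatum. The PFC median is over types and excitatory neuron subtypes together, and the striatal median over types. P-values measure the spread between libraries that each pool 2 mice.

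The members, gene lists and tests were chosen with earlier results of these data known. Fold changes were named for each member in its highest type and wherever called, and pathway genes where called, at most 4 per comparison and type with the largest change. The test of the Pvalb split between tissues and the levels with libraries left out or by percent of cells without thinning and the shares of genes without overlap and the side that passed the filter were chosen after seeing the data.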

Additional observations from a re-analysis of the deposited data

Results flagged for a closer look

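In 3 of 29 groups of 4 libraries tested, 1 library stood apart from the other 3 by Dixon's test, which chance gives in about 1 in 20 groups. Bcan in striatal astrocytes was at 382 CPM in Setd1a+/- replicate 2 and at 568 to 603 CPM in the others. Hapln1 in PFC interneurons was at 222 CPM in Setd1a+/- replicate 2 and at 144 to 157 CPM in the others. Hapln2 in striatal oligodendrocytes was at 50.4 CPM in Setd1a+/- replicate 2 and at 13.7 to 16.1 CPM in the others. The striatal Setd1a+/- replicate 2 had few cells of these types: 31 astrocytes against 214 to 354, and 67 oligodendrocytes against 514 to 947. Dixon's test takes no account of this difference in depth.

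The Hapln1 difference between interneurons with and without a Pvalb UMI differed between the tissues by 6.21 on the log2 scale, higher in the striatum, in a fit over 7 libraries (edgeR's quasi-likelihood test). The PFC side with a Pvalb UMI rested on 3 Hapln1 UMIs in 25 cells.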

How the results depend on the processing

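The 6 member tests called between tissues became 14 with no filter on low counts, 12 with the replicate block, 7 with DESeq2 and 3 to 9 with a library left out, the 3 without striatum WT replicate 1 being Tnr in endothelial cells, Hapln1 in interneurons and Ptprz1 in oligodendrocytes. The 5 called in the Pvalb split became 1 with thinned cells, where 2 libraries per tissue and 1 member could be tested, and 3 to 6 with a library left out (3 without striatum WT replicate 1 or 2). The replicate block changed no other call of a member. No member was called by genotype or interaction under DESeq2. Of the 20 highest types (10 members, 2 tissues), 19 held without high-UMI cells, 17 by percent of thinned cells, 15 by percent of cells without thinning and 18 to 20 with a library left out, the last 2 alternatives added after seeing the data.

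Directions that turned were all of uncalled log2 differences. With a library left out, genotype effects ran from -0.34 to 0.0017 for Ncan in PFC OPCs, -0.77 to 0.42 for Acan and -0.13 to 0.090 for Ptprz1 in striatal OPCs, -0.17 to 0.44 for Tnr in striatal NFOs, -0.10 to 0.58 for Hapln1 in PFC interneurons, -0.052 to 1.71 for Hapln2 in striatal oligodendrocytes and -1.45 to 0.53 for Hapln4 in striatal interneurons. Tissue differences ran from -0.052 to 0.20 for Bcan in astrocytes and -0.034 to 0.61 for Hapln4 in interneurons. Interactions ran from -0.21 to 0.59 for Vcan, -0.44 to 0.14 for Ncan and -0.87 to 0.82 for Acan in OPCs, and from -0.68 to 0.20 for Bcan and -0.48 to 0.040 for Hapln1 in astrocytes. Without high-UMI cells the interaction was 0.067 for Bcan and 0.10 for Hapln1 in astrocytes, and the genotype effect on Hapln1 in striatal astrocytes was 0.012. With the replicate block the interaction for Acan in OPCs was -0.19. Values that kept their sign also moved by over 1.5 times with a library left out: genotype effects ran from -0.82 to -0.061 for Vcan and -0.66 to -0.029 for Ptprz1 in PFC OPCs, -0.42 to -0.17 for Vcan and -0.60 to -0.044 for Ncan in striatal OPCs, -0.55 to -0.011 for Bcan in PFC astrocytes, -0.88 to -0.082 for Bcan and -0.55 to -0.074 for Hapln1 in striatal astrocytes, -0.32 to -0.15 for Tnr in PFC NFOs and 0.066 to 0.86 for Hapln4 in PFC excitatory neurons. Interactions of this kind ran from 0.033 to 0.70 for Tnr in NFOs, 0.012 to 0.68 for Ptprz1 in OPCs, 0.47 to 2.31 for Hapln2 in oligodendrocytes and -2.19 to -0.22 for Hapln4 in interneurons. The tissue difference of Ncan in OPCs ran from 0.098 to 0.30. The cause was not tested.

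Over all genes, tissue calls numbered 2562, against 5538 with no filter, 4084 with the block and 1677 to 3734 with a library left out. Pvalb calls numbered 836, against 426 (DESeq2), 48 (thinned) and 668 to 818. Genotype calls numbered 0 in PFC types (63 with no filter, 33 with the block, 1 with DESeq2, 16 to 69 with a library left out), 0 in the subtypes (28, 12 with the block, 7 to 227) and 4 in striatal types (110, 83, 70 to 403), and interaction calls 0 (26, 4, 0 to 4). With 2 libraries a side, the median SE of 0.33 limits what a genotype test can show, and Tnc, Acan outside OPCs and PFC Hapln2 were limited by depth.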

Other observations

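The interneurons of the striatum with no UMI of Pvalb, Sst, Vip or Chat were split by Npy and Lamp5 as those of the PFC had been, after their values were seen and with no test. The 81 cells with an Npy UMI held 50 Hapln1 UMIs, at 110 CPM with libraries from 29.3 to 265 CPM, and the 498 without one held 85, at 34.1 CPM with libraries from 28.8 to 43.9 CPM. The 57 cells with a Lamp5 UMI held 42 Hapln1 UMIs, at 149 CPM with libraries from 0 to 336 CPM. The libraries of the sides overlapped for both markers.

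Hapln3, the link protein gene that ends beside Acan, was at 12.5 CPM in PFC OPCs (29 UMIs) and 16.6 CPM in striatal OPCs (40 UMIs).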
